A study of Rattus norvegicus with 20 samples.

Results

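Voltage-gated potassium (Kv) channels were described in rat dorsal root ganglia (DRG) through 8 genes, Kcna1, Kcna2, Kcna4, Kcnb2, Kcnc4, Kcnd3, Kcnq3 and Kcns1. They were taken by symbol from a table of RNA sequencing counts with 39747 rows, and all 8 were found. DRG hold the cell bodies of the sensory neurons of the body wall and limbs. The 20 libraries came from 14 wild-type female Sprague-Dawley rats, for which the labels give no age.

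All rats were fed 1 of 2 diets from 4 weeks before surgery, either a soy oil diet (SOD), which was the control, or a diet enriched in fish oil (FOD). Chronic constriction injury (CCI) consisted of 4 loose chromic gut ligatures on the sciatic nerve of the left leg, and in the sham operation (CT) that nerve was exposed and no ligature was placed. In the soy oil arm, left DRG were sequenced from 4 sham (SOD-CT) and 3 injured (SOD-CCI) rats, and in the fish oil arm from 3 sham (FOD-CT) and 4 injured (FOD-CCI) rats. Right (contralateral) DRG came from 3 SOD-CCI and 3 FOD-CCI rats whose left DRG was also sequenced. The contralateral side is uninjured but belongs to an operated animal, and a whole ganglion mixes injured and spared neurons with glia. The DRG were collected 1 week after CCI, while the design has both diets go on for 4 weeks after surgery.

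A Kv channel opens when a membrane is depolarised and lets potassium leave the cell, which ends an action potential and limits repeated firing. Each channel is a tetramer of alpha subunits. Kcna1, Kcna2 and Kcna4 encode Kv1.1, Kv1.2 and Kv1.4, which give low-threshold currents. Kv1.1 and Kv1.2 sit beside the nodes of myelinated axons and Kv1.4 inactivates fast. Kcnb2 encodes Kv2.2, a delayed rectifier, and Kcns1 encodes Kv9.1, a silent subunit that forms no channel alone and joins Kv2 subunits. Kcnc4 encodes Kv3.4 and Kcnd3 encodes Kv4.3, both of A-type, fast inactivating currents. Kcnq3 encodes Kv7.3, a subunit of the channels of the slow M current. In sensory neurons these currents set how easily a neuron fires.

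The promoters of Kcns1, Kcnd3 and Kcna4 are printed because these were the 3 members called lower in the injured DRG of 5 rats, and their base composition differs widely. Each run is the 250 bases before the start of the gene in RefSeq on GRCr8, read along the gene's strand, with matches to GGGCGG or its reverse complement in capitals.
Kcns1 (chr3:173262347-173262596, minus strand): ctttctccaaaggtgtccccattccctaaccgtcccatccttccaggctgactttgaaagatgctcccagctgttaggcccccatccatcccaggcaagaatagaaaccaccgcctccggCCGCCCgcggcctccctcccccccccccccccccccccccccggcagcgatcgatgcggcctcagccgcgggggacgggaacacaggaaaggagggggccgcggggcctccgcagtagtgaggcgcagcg
Kcnd3 (chr2:195626066-195626315, plus strand): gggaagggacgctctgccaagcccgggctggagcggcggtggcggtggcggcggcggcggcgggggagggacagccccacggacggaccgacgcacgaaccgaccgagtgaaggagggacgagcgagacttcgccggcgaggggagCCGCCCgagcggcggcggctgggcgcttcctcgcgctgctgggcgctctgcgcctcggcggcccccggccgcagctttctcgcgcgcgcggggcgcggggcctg
Kcna4 (chr3:114215086-114215335, plus strand): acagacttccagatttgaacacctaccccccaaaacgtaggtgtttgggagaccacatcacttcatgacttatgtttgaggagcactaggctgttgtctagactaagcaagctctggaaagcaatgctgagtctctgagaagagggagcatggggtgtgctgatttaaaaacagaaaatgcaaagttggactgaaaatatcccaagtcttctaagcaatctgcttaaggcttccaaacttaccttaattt

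The Kcns1 and Kcnd3 runs are rich in G and C (68.8% and 79.6%, with 18 and 43 CG dinucleotides), whereas the Kcna4 run is not (42.8%, 1 CG dinucleotide). The median over 33469 promoters of the same length was 51.2%, with 5 CG dinucleotides. RefSeq promoters were found for 5 of the 8 members. Those of Kcna2 (72.4% G and C, 33 CG dinucleotides) and Kcnc4 (60.8%, 13) are also GC-rich. On either strand GGGCGG had 3 matches before Kcna2, 1 each before Kcnc4, Kcnd3 and Kcns1, and none before Kcna4, and 30.5% of all promoters hold it. Neither TGANTCA (in 6.34% of promoters) nor TGACGTCA (in 1.59%) had a match in any of the 5. Kcna2 lies between Kcna3 and Kcna10 on chromosome 2 with no other protein-coding gene between either pair, and 6 protein-coding genes separate it from Kcnc4.

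Totals ran from 22547190 to 54437581 counts per library. Some libraries stood apart in genes of other tissues. The summed level of 7 spinal cord glia genes was 2303 to 3721 CPM (counts scaled to the library total) in FOD-CT 1, FOD-CCI 1 and contralateral FOD-CCI 1, against 14.2 to 67.2 CPM in the 17 others. The summed level of 6 spinal cord inhibitory neuron genes was 598 to 678 CPM in the same 3 libraries and 0 to 5.38 CPM in the others, where 1 library had all 6 at 0. In contralateral FOD-CCI 1 the sum of 9 nociceptor genes was 65.3 CPM, against 1795 to 2801 CPM in the other 5 contralateral DRG, and Scn10a and Trpv1, which define nociceptors, were at 0 counts there. Skeletal muscle genes (8) summed to 92000 CPM in SOD-CT 1 and 19230 CPM in FOD-CT 2. The 15 nerve injury genes summed to 1479 to 4129 CPM in 6 of the 7 left CCI DRG, but to 531.7 CPM in FOD-CCI 1, within the 367.9 to 797.6 CPM of the 7 sham DRG. Pan-neuronal genes were found in every library, at 2272 to 10180 CPM in sum. The part these libraries play in the results was not tested. Values without them follow in the fits of left DRG without SOD-CT 1, FOD-CT 1 and FOD-CCI 1, of 5 rats without FOD-CCI 1, and of sham and contralateral DRG without SOD-CT 1, FOD-CT 1 and contralateral FOD-CCI 1.

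**Figure D1:**
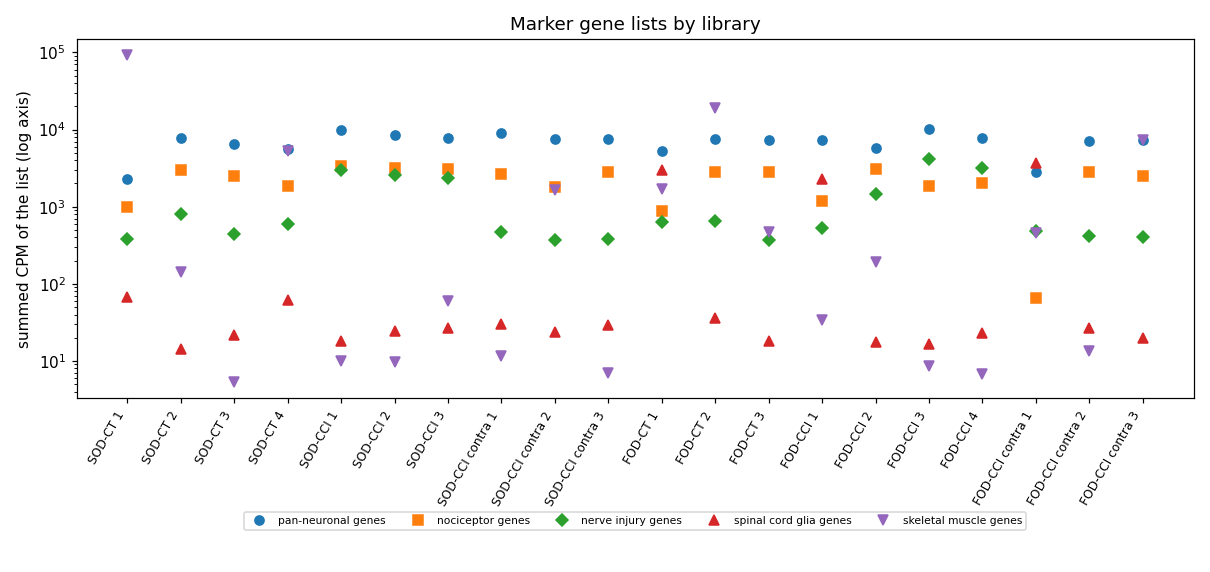
Summed CPM (log axis) of 5 marker lists in each of the 20 libraries, with 1 symbol per list and contra for contralateral. Spinal cord glia genes reach 2303 to 3721 CPM in the 3 libraries FOD-CT 1, FOD-CCI 1 and contralateral FOD-CCI 1, and muscle genes reach 92000 CPM in SOD-CT 1.

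Levels were compared between genes as deposited FPKM, which accounts for gene length. Kcna1 had the highest median over the 20 libraries (33.3 FPKM), followed by Kcns1 (23.3 FPKM) and Kcnc4 (22.3 FPKM). Kcnd3 (7.65 FPKM), Kcna2 (7.02 FPKM) and Kcna4 (5.95 FPKM) followed, and Kcnq3 (2.13 FPKM) and Kcnb2 (1.91 FPKM) were lowest. Every member had at least 15 counts in every library. The ratio of the highest to the lowest library in CPM was 114 for Kcna2 and 75.3 for Kcns1, but 3.80 for Kcnd3 and 4.69 for Kcnc4. Kcnd3 is listed on a second row, a placement on an unplaced scaffold with 0.845 to 9.85 CPM, which was kept apart because reads may be shared between the rows.

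**Figure D2:**
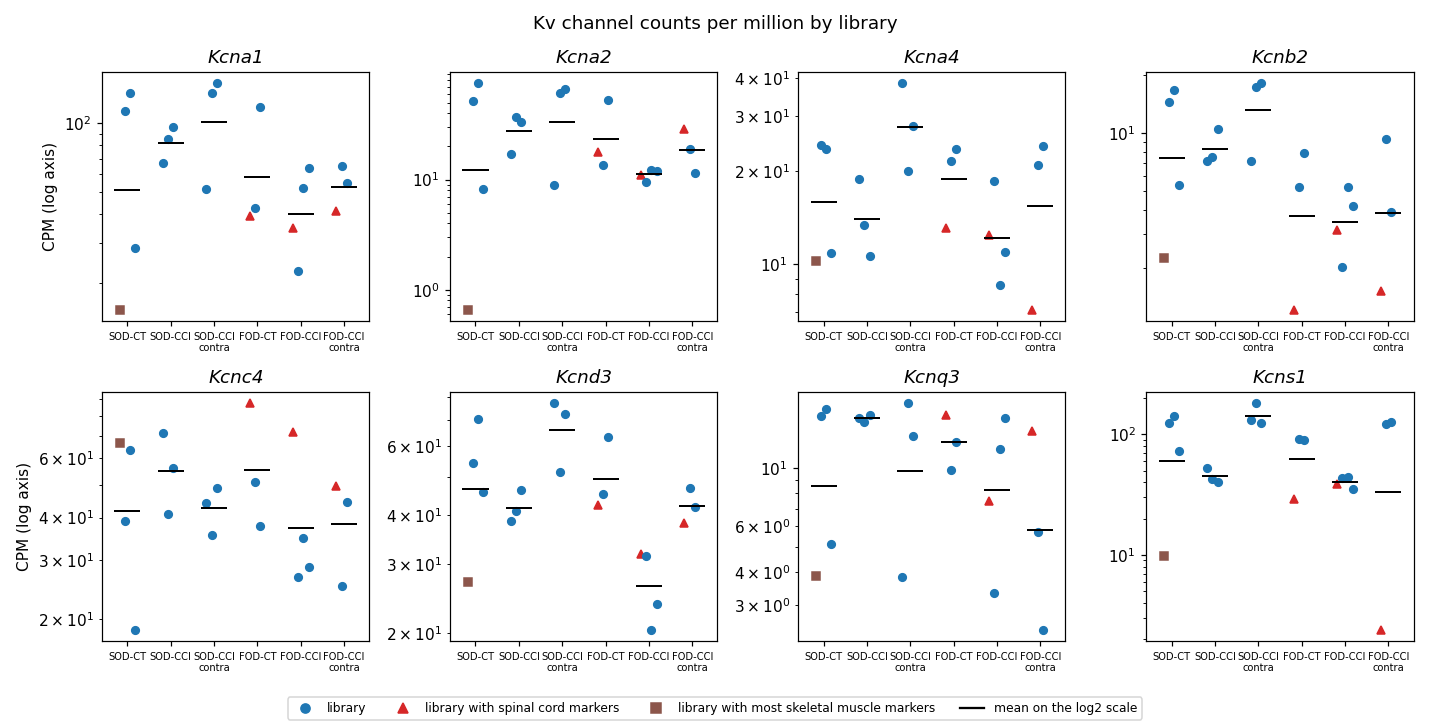
CPM of the 8 genes (log axis) in each library of the 6 groups. Bars are means on the log2 scale, red triangles are the 3 libraries with spinal cord markers, and the brown square is SOD-CT 1. Kcns1 lies at 35.3 to 52.3 CPM in all 7 left CCI DRG.

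Kcns1, the silent Kv9.1 subunit, had the widest gap between the sides. In left DRG of SOD-CCI rats its levels were 52.3, 42.6 and 40.1 CPM, and in left DRG of FOD-CCI rats 39.0, 43.5, 43.98 and 35.3 CPM. In contralateral DRG they were 131.1, 180.4 and 123.2 CPM for SOD-CCI rats, and 2.40, 121.7 and 125.7 CPM for FOD-CCI rats. The 7 left CCI values stood within 35.3 to 52.3 CPM, and 5 of the 6 contralateral values were above all of them. The exception was contralateral FOD-CCI 1, a library with spinal cord markers and the lowest nociceptor sum. In a bulk ganglion, fewer cells of a type and less RNA per cell cannot be told apart.

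Sham levels of Kcns1 were 9.87, 124.3, 142.0 and 73.1 CPM in SOD-CT and 29.0, 91.8 and 90.2 CPM in FOD-CT. The 5 sham DRG other than SOD-CT 1 and FOD-CT 1 had 73.1 to 142.0 CPM, above every left CCI value. The 2 lowest sham libraries were the one with the most skeletal muscle transcript and the one with spinal cord markers, so that the full groups overlapped. As a percentage of the contralateral level of the same rat, left Kcns1 was 39.9%, 23.6% and 32.6% in SOD-CCI rats and 35.7% and 35.0% in FOD-CCI replicates 2 and 3. In FOD-CCI 1 it was 1630%.

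Over all 6 rats, Kcns1 had a log2 fold change (log2FC) of −0.94 left against contralateral (SE 0.67, adjusted p = 0.64). The test was edgeR's quasi-likelihood test with the rat as a block, adjusted by Benjamini-Hochberg over all genes tested, and a call needed an adjusted p no higher than 0.1 and a change of 1.2-fold or more. Without the rat FOD-CCI 1 (both DRG left out, 5 rats), Kcns1 fell by 1.62 on the log2 scale (SE 0.15, edgeR adjusted p = 0.00088). Left Kcns1 exceeded the contralateral level in that rat alone, so this p is not independent of leaving it out. Of the 14992 genes tested in these 5 rats, 3.33% were called lower. Within diets, in the same fit of 5 rats, the log2FC was −1.73 in SOD-CCI (edgeR adjusted p = 0.00384, where 1.11% of genes were called lower). It was −1.505 in FOD-CCI (edgeR adjusted p = 0.0364, 0.314% called lower), from replicates 2 and 3 only, with the spread estimated over the 5 rats. The difference between diets was 0.22 on the log2 scale (SE 0.30, edgeR adjusted p = 0.999).

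Against sham, Kcns1 did not pass with all libraries: the log2FC was −0.99 for SOD (SE 0.55, edgeR adjusted p = 0.43) and −0.79 for FOD (SE 0.54, edgeR adjusted p = 1.00). Without SOD-CT 1, FOD-CT 1 and FOD-CCI 1, an alternative added after the data had been seen, it fell by 1.34 in SOD (SE 0.22, edgeR adjusted p = 0.0343) and by 1.17 in FOD (SE 0.24, edgeR adjusted p = 0.0416). In those 11 libraries 0.376% of the 15177 genes were called lower in SOD and 1.57% in FOD. The 2 sham libraries left out are those with the lowest Kcns1, whereas FOD-CT 2, with muscle transcripts and 91.8 CPM of Kcns1, stayed in. With FOD-CT 2 left out as well, 1 FOD-CT library remains, assumed to vary like the other groups, and calls could not be judged. The log2FC of Kcns1 was then −1.34 in SOD (SE 0.23) and −1.09 in FOD (SE 0.30). Between the injured groups the difference was −0.09 (FOD-CCI against SOD-CCI, SE 0.54, 95% interval −1.15 to 0.97), and −0.065 (SE 0.22) in the 11 libraries.

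Kcnd3, encoding Kv4.3 of the A-type current, was lower on the left in every rat in its first row. The left levels were 38.6, 40.9 and 46.2 CPM in SOD-CCI rats and 31.8, 31.4, 20.3 and 23.7 CPM in FOD-CCI rats. The contralateral levels were 77.2, 51.6 and 72.4 CPM in SOD-CCI rats and 38.0, 46.8 and 41.9 CPM in FOD-CCI rats. Left DRG held 48.6% to 83.5% of the contralateral level. Of the genes tested, 2.57% were lower on the left in 6 of 6 rats. The log2FC over both diets was −0.66 (SE 0.16), with an edgeR adjusted p of 0.158, above the threshold. An exact two-sided sign-flip test over the 6 rats gave p = 0.03125 for Kcnd3, the smallest p possible, and is 1 of 8 such tests, unadjusted. In 5 rats without FOD-CCI 1 the gene fell by 0.76 (SE 0.16, edgeR adjusted p = 0.0276).

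Sham levels of Kcnd3 were 27.0, 54.4, 70.6 and 45.9 CPM in SOD-CT and 42.5, 45.2 and 63.1 CPM in FOD-CT. All 4 FOD-CCI levels were below all 3 FOD-CT levels, and below all 3 SOD-CCI levels. SOD-CCI and SOD-CT overlapped. FOD-CCI against FOD-CT gave a log2FC of −0.87 (SE 0.23, unadjusted p = 0.00198 by edgeR, adjusted p = 1.00). Without the 3 libraries named above it fell by 1.11 (SE 0.23, edgeR adjusted p = 0.0422). Without FOD-CT 2 as well, which leaves 1 FOD-CT library, the log2FC was −1.27 (SE 0.28), and a call could not be judged. FOD-CCI against SOD-CCI gave −0.58 (SE 0.23, edgeR adjusted p = 0.86), and the diet by injury interaction gave −0.50 (SE 0.32, edgeR adjusted p = 0.89). The second Kcnd3 row gave −0.45 between the sides over both diets (SE 0.38, edgeR adjusted p = 0.69), and was lower on the left in 3 of 6 rats.

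Kcna4, the inactivating Kv1.4 subunit, was lower on the left in 5 of 6 rats. Left levels were 18.8, 13.5 and 10.7 CPM in SOD-CCI rats and 12.5, 18.6, 8.56 and 10.9 CPM in FOD-CCI rats. Contralateral levels were 38.4, 20.0 and 27.9 CPM in SOD-CCI rats and 7.14, 21.0 and 24.1 CPM in FOD-CCI rats. Every left CCI level was below every contralateral level except that of contralateral FOD-CCI 1. The share of all genes separated in this way was not counted, here or for Kcns1. Sham levels of Kcna4 were 10.3, 24.2, 23.5 and 10.9 CPM in SOD-CT and 13.2, 21.5 and 23.5 CPM in FOD-CT, and overlapped the left CCI levels. The log2FC over both diets was −0.66 (SE 0.29, edgeR adjusted p = 0.43) in 6 rats, and Kcna4 fell by 0.94 (SE 0.23, edgeR adjusted p = 0.0555) in the 5 without FOD-CCI 1.

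In those 5 rats, 3 of the 8 members (Kcns1, Kcnd3 and Kcna4) were called lower on the left and none higher, against 3.33% of all genes called lower and 4.32% called higher. In FOD-CCI 1, left Kcns1, Kcna4 and Kcnd3 were 1630%, 174% and 83.5% of the contralateral level, the highest of the 6 rats for each. These 3 calls are therefore not independent of leaving that rat out. Of all genes, 8.68% were lower on the left in each of the 5 rats. Over all 6 rats none of the 8 was called, and 0.962% of all genes were called in either direction. By diet, no member was called over all 6 rats, where 0.131% (SOD-CCI) and 0.0137% (FOD-CCI) of genes were called. DESeq2 called 1 member, Kcnd3, over all 6 rats, among 790 genes that it called there in either direction, where edgeR called 140 of 14549. At an unadjusted p under 0.05, 1 member was lower over both diets (4.1% of all genes), 2 in SOD-CCI (3.14%) and 1 in FOD-CCI (2.65%). The median log2FC of the 8 was −0.51 in 6 rats and −0.67 in 5, whereas that of all genes was 0.03 and 0.02. In the 5 rats the median was −0.63 for 7 large-diameter sensory neuron genes, −0.33 for 9 nociceptor genes and −0.06 for 8 pan-neuronal genes.

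**Figure D3:**
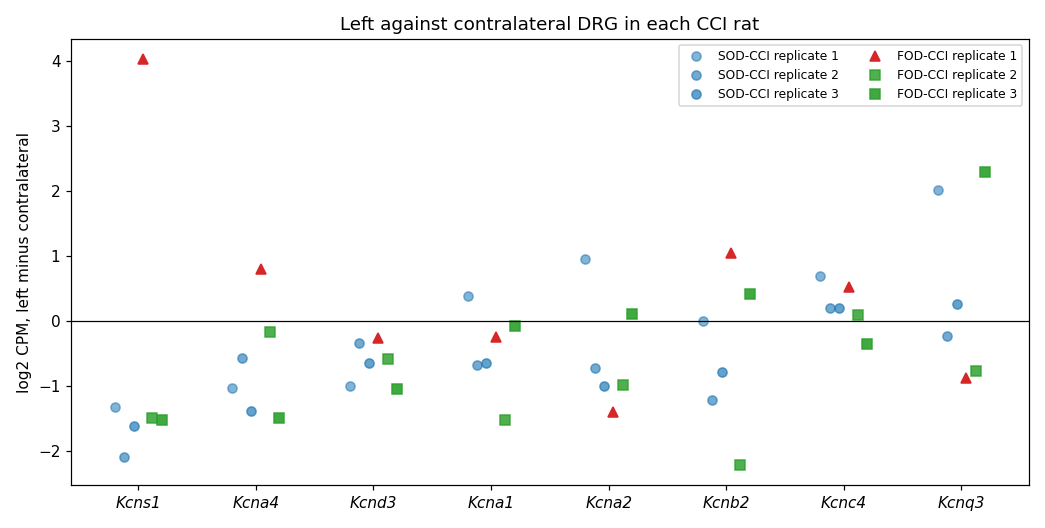
Difference in log2 CPM between left and contralateral DRG of each of the 6 rats with both sides, for the 8 genes; values below 0 are lower on the left. The red triangle is FOD-CCI 1, which lies at 4.03 for Kcns1 while the other 5 rats lie from −2.08 to −1.33.

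The Kv1 subunits of the juxtaparanode, Kcna1 and Kcna2, spread widely between rats of 1 group. Kcna1 was at 67.1, 85.1 and 96.0 CPM in left SOD-CCI and 34.8, 22.5, 52.2 and 63.9 CPM in left FOD-CCI DRG. Kcna2 was at 17.2, 37.0 and 33.2 CPM in left SOD-CCI and 11.1, 9.54, 12.3 and 12.0 CPM in left FOD-CCI DRG. Both genes were lower in all 4 FOD-CCI than in all 3 SOD-CCI libraries.

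Sham Kcna1 was at 15.3, 112.9, 135.1 and 28.5 CPM in SOD-CT and 39.4, 42.5 and 117.7 CPM in FOD-CT. Sham Kcna2 was at 0.658, 51.2, 75.0 and 8.24 CPM in SOD-CT and 17.6, 13.5 and 52.6 CPM in FOD-CT. Both genes were lowest in SOD-CT 1, the library with the most muscle transcript, and Kcna2 spanned the full 114-fold range within the sham group. All 4 FOD-CCI levels of Kcna2 were below the 3 FOD-CT levels.

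FOD-CCI against SOD-CCI, the log2FC was −0.87 for Kcna1 (SE 0.56, 95% interval −1.98 to 0.24) and −1.30 for Kcna2 (SE 0.86, 95% interval −2.99 to 0.38). FOD-CCI against FOD-CT gave −0.58 for Kcna1 (SE 0.56) and −1.26 for Kcna2 (SE 0.86), and SOD-CCI against SOD-CT gave 0.14 (SE 0.57) and −0.22 (SE 0.87). None of these passed the test. Left against contralateral over both diets, Kcna1 had −0.48 (SE 0.22) and was lower in 5 of 6 rats, and Kcna2 had −0.54 (SE 0.29) and was lower in 4 of 6 (edgeR adjusted p = 0.45 and 0.52). In the 5 rats without FOD-CCI 1 these were −0.58 (SE 0.23) and −0.39 (SE 0.29), neither of them called. The contralateral levels ran from 41.4 to 149.5 CPM for Kcna1 and from 8.93 to 66.2 CPM for Kcna2, and overlapped those of the left DRG.

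Kcnb2, the Kv2.2 delayed rectifier, was the member with the lowest FPKM. Left levels were 7.16, 7.48 and 10.5 CPM in SOD-CCI and 3.12, 2.02, 5.22 and 4.19 CPM in FOD-CCI DRG, with no overlap between the diets. In contralateral DRG the levels were 7.14, 17.3 and 18.1 CPM for SOD-CCI and 1.51, 9.36 and 3.91 CPM for FOD-CCI rats. Sham levels were 2.24, 14.5, 16.7 and 5.38 CPM in SOD-CT and 1.21, 5.25 and 7.84 CPM in FOD-CT. FOD-CCI against SOD-CCI gave a log2FC of −1.14 (SE 0.62, edgeR adjusted p = 0.86), and FOD-CT against SOD-CT gave −1.02 (SE 0.64, edgeR adjusted p = 0.96). Left against contralateral gave −0.46 (SE 0.44), lower in 3 of 6 rats, and −0.80 (SE 0.40, edgeR adjusted p = 0.31) in the 5 rats without FOD-CCI 1.

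Between the injured groups, Kcna1, Kcna2, Kcnb2 and Kcnd3 (4 of 8) had every FOD-CCI library below every SOD-CCI library, as did 9.28% of all genes tested. All 8 members had a negative log2FC in this comparison, with a median of −0.61, against 0.04 over all genes. None was called, as was none of the 14484 genes (0%). At an unadjusted p under 0.05, 1 member (Kcnd3) was lower, against 1.53% of all genes. In the 11 libraries without SOD-CT 1, FOD-CT 1 and FOD-CCI 1 all 8 were again negative (median −0.72, against 0.01 over all genes) and none was called, as was no gene (0%). There the log2FC was −0.78 for Kcna1, −1.29 for Kcna2, −1.07 for Kcnb2 and −0.66 for Kcnd3, and that of Kcnc4 went from −0.42 to −0.84. The 9 nociceptor genes had a median log2FC of −0.78 in the same comparison, all 9 negative, and the 8 pan-neuronal genes −0.30 (7 negative). Of 7 large-diameter sensory neuron genes, 6 were tested, with a median of −0.16 (5 negative). The mean log2 CPM of the 7 was 5.49 to 6.15 in the 4 FOD-CCI libraries, below the 6.27 to 6.41 of the 3 SOD-CCI libraries, while their summed levels overlapped (5580 to 11020 CPM and 8703 to 9324 CPM). The part of these lists in the members' differences was not tested.

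Kcnc4, the A-type Kv3.4, gave no call in any comparison. Left levels were 71.3, 41.1 and 56.2 CPM in SOD-CCI and 71.8, 26.6, 34.8 and 28.6 CPM in FOD-CCI DRG, and contralateral levels were 44.1, 35.6 and 49.05 CPM and 49.8, 25.1 and 44.6 CPM. Sham levels were 66.5, 39.2, 63.4 and 18.6 CPM in SOD-CT and 87.3, 51.1 and 37.9 CPM in FOD-CT. The 3 libraries with spinal cord markers had 49.8 to 87.3 CPM, the highest of their groups. Left against contralateral gave a log2FC of 0.21 (SE 0.16, 95% interval −0.11 to 0.53), lower on the left in 1 of 6 rats, and 0.085 (SE 0.15) in the 5 rats without FOD-CCI 1.

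Kcnq3, the Kv7.3 subunit of the M current, was lower on the left in 3 of 6 rats and higher in the other 3. Left levels were 15.6, 15.0 and 15.9 CPM in SOD-CCI and 7.51, 3.32, 11.8 and 15.5 CPM in FOD-CCI DRG. Contralateral levels were 3.84, 17.7 and 13.3 CPM for SOD-CCI rats and 13.8, 5.69 and 2.41 CPM for FOD-CCI rats. Left DRG held 54.5% to 492% of the contralateral level. The log2FC over both diets was 0.38 (SE 0.48, 95% interval −0.56 to 1.31), and 0.67 (SE 0.49) in the 5 rats without FOD-CCI 1. In SOD-CCI the 3 left libraries differed by less than 1 CPM from one another, and sham libraries ran from 3.86 to 16.8 CPM.

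Injury within each diet was compared with sham in the model of left DRG, with 14 libraries. Between SOD-CCI and SOD-CT, no member was called and none of all genes was (0%), and no member had an unadjusted p under 0.05, although 8.8% of all genes were lower at that p. All 8 members overlapped between these groups, while 5.66% of genes had every SOD-CCI library lower. The log2FC were −0.39 for Kcna4 (SE 0.37), −0.26 for Kcnb2 (SE 0.62), −0.37 for Kcnd3 (SE 0.23), 0.50 for Kcnq3 (SE 0.48) and −0.01 for Kcnc4 (SE 0.49). FOD-CCI against FOD-CT, none was called (0% of all genes), all 8 log2FC were negative with a median of −0.58, and 1 member, Kcnd3, had an unadjusted p under 0.05, against 1.31% of all genes lower. Kcna2 and Kcnd3 (2 of 8) did not overlap between those groups, with 2.54% of all genes lower in the same way. There Kcna4 had −0.59 (SE 0.36), Kcnb2 −0.38 (SE 0.62), Kcnq3 −0.37 (SE 0.48) and Kcnc4 −0.48 (SE 0.49). The diet by injury interaction, FOD-CT against SOD-CT and the difference between diets in the side effect gave no call among the members, nor among all genes (0%), by edgeR. No member had an unadjusted p under 0.05 in these 3. DESeq2 called 594 genes in SOD-CCI against SOD-CT, 21 in FOD-CCI against FOD-CT, 2 in FOD-CCI against SOD-CCI, 0 in FOD-CT against SOD-CT, 42 in the interaction and 60 in the difference between diets, none of them a member.

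**Figure D4:**
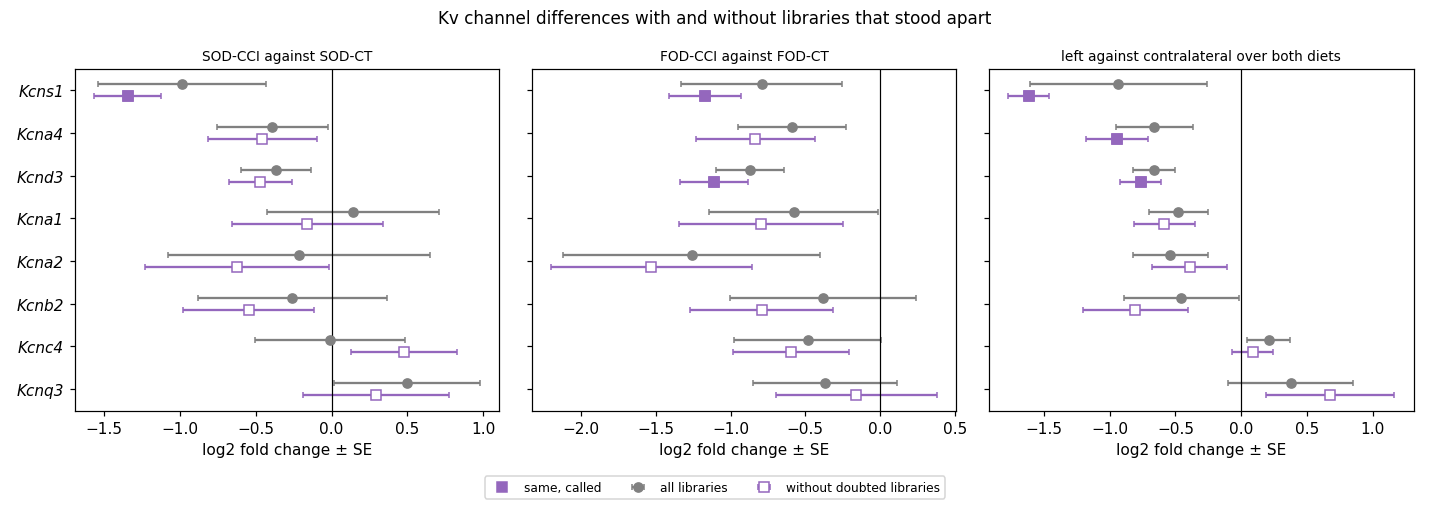
Log2FC with SE of the 8 genes for injury in each diet and for left against contralateral. Grey circles use all libraries, and squares leave out SOD-CT 1, FOD-CT 1 and FOD-CCI 1 (left and middle) or the rat FOD-CCI 1 (right), filled where called. Called are Kcns1 (all 3 panels), Kcnd3 (middle and right) and Kcna4 (right).

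Contralateral DRG were compared with sham DRG and between diets. By edgeR none of the 3 comparisons called a member or any other gene (0%). DESeq2 called no member there either, with 52 genes called in contralateral SOD-CCI against SOD-CT, 0 in contralateral FOD-CCI against FOD-CT and 58 between the contralateral groups. Contralateral SOD-CCI against SOD-CT had a median log2FC of 0.49 over the 8 members, 7 of them positive, and contralateral FOD-CCI against FOD-CT a median of −0.25. Without SOD-CT 1, FOD-CT 1 and contralateral FOD-CCI 1 these medians were 0.27 and −0.31, and no gene was called (0%). Contralateral FOD-CCI against contralateral SOD-CCI had all 8 negative (median −0.73), with Kcnd3 at −0.66 (SE 0.26, unadjusted p = 0.024 by edgeR, adjusted p = 0.70). In the 10 libraries all 8 were negative too (median −0.72), with Kcnd3 at −0.57 (SE 0.24, edgeR adjusted p = 0.43). Kcnq3 was at −1.49 there (SE 0.66, edgeR adjusted p = 0.45). At an unadjusted p under 0.05 these 2 members were lower, against 5.15% of all genes. These comparisons share their contralateral or sham libraries. Ordered by mean log2 CPM, the contralateral SOD-CCI group was highest for 6 of the 8 members (Kcna1, Kcna2, Kcna4, Kcnb2, Kcnd3 and Kcns1). Of the 40 gaps between neighbouring groups in these orders, 7 were wider than their pooled SD, and the widest in those units was that between SOD-CCI and FOD-CCI for Kcnd3 (2.74 SD).

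Other genes of the Kv family were compared from lists of 29 other alpha subunits, 15 auxiliary subunits and 8 juxtaparanodal partners. Over all 6 rats none of these was called between the sides, and the smallest adjusted p of edgeR was 0.102, for Kcnc2 of the Kv3 family, with a log2FC of −0.72 (SE 0.15). Among the auxiliary subunits Kcne3, a single-pass subunit, had 2.06 (SE 0.58), and Dpp6 and Dpp10, which bind Kv4 channels, −0.53 (SE 0.17) and −0.89 (SE 0.30). Cntnap2, the axonal protein that gathers Kv1 channels beside the node, had −0.43 (SE 0.19), followed among its partners by the scaffold genes Dlg4 (−0.24, SE 0.13) and Dlg1 (−0.14, SE 0.18).

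In the 5 rats without FOD-CCI 1, 4 of 21 other alpha subunits tested were called lower and none higher, against 3.33% and 4.32% of all genes. These genes were named after their values were seen. Kcns3, the silent Kv9.3 subunit, fell by 1.45 (SE 0.17, edgeR adjusted p = 0.00174), from 93.6 to 172 CPM in the 5 contralateral DRG to 33.3 to 67.3 CPM on the left. Kcnv1, a further silent subunit, fell by 1.16 (SE 0.18). Kcnh7 of the Erg family fell by 1.27 (SE 0.26) and Kcnc2 by 0.80 (SE 0.16). The median over the 21 was −0.35 against 0.02 over all genes.

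Of 10 auxiliary subunits tested in the same 5 rats, 6 were called lower and 1 higher, again against 3.33% and 4.32% of all genes. Dpp10 fell by 1.25 (SE 0.15, edgeR adjusted p = 0.00264), with 104 to 176 CPM in contralateral and 34.0 to 68.1 CPM in left DRG. Kcnip3 and Dpp6, which also bind Kv4 channels, fell by 1.10 (SE 0.24) and 0.68 (SE 0.14). Kcnab1 and Kcnab2, the beta subunits of Kv1 channels, fell by 0.91 (SE 0.15) and 0.67 (SE 0.15), and Amigo1, a partner of Kv2 channels, by 0.83 (SE 0.13). Kcne3 rose by 1.60 (SE 0.30, edgeR adjusted p = 0.0192), from 2.25 to 6.35 CPM to 10.3 to 13.8 CPM. Of 8 juxtaparanodal partners 1 was called, Cntnap2, which fell by 0.59 (SE 0.16). Beside these values, 12 of 12 nerve injury genes tested were called higher (4.32% of all genes). The left DRG of FOD-CCI 1 had a nerve injury sum at the sham level, so this count is not independent of leaving that rat out. Called lower were 1 of 8 pan-neuronal genes (Snap25), 3 of 7 large-diameter neuron genes (Nefm, Etv1 and Shox2) and 1 of 9 nociceptor genes (Prdm12). The part of these lists in the Kv differences was not tested.

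**Figure D5:**
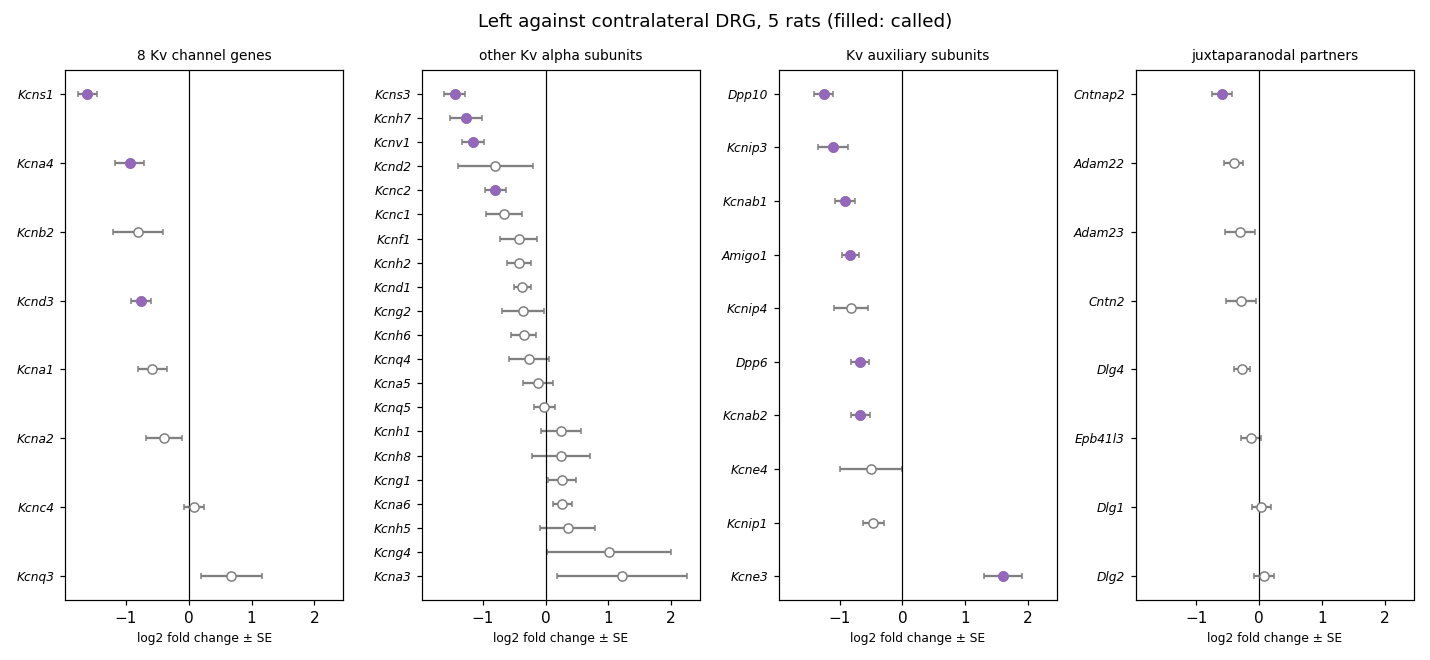
Log2FC with SE of left against contralateral DRG in the 5 rats without FOD-CCI 1, for the 8 genes, 21 other alpha subunits, 10 auxiliary subunits and 8 juxtaparanodal partners; filled points were called. Kcns1 (−1.62) and Kcns3 (−1.45) lie farthest below 0 among the alpha subunits, and Kcne3 (1.60) is the one called gene above 0.

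The members were also compared by their pattern over the 20 libraries, as the root mean square difference of log2 CPM after centring each gene. Among the members, Kcna4 and Kcnd3 were closest (0.420), followed by Kcna1 and Kcnb2 (0.632), and Kcnq3 and Kcns1 were farthest apart (1.73). Genes were not scaled, so the distance also grows with a gene's own spread over the libraries. That SD was 0.506 for Kcnd3 and 0.626 for Kcna4, but 1.44 for Kcns1 and 1.49 for Kcna2. Among 14434 genes the nearest to each member were Kif1b and Apba1 for Kcna1 (0.285 and 0.313), Scn8a and Nacc2 for Kcna2 (0.579 and 0.612), and Galnt14 and Entpd4 for Kcna4 (0.302 and 0.305). For Kcnd3 they were Cadps2 and Slitrk4 (0.246 and 0.258), for Kcnb2 Ndst4 and Ankrd52 (0.428 and 0.487), and for Kcnc4 Gcat and Sema4d (0.309 and 0.353). For Kcnq3 they were Prrc2c and Zfp609 (0.415 and 0.416), and for Kcns1 Tpbgl (0.450) and an unnamed transcript (0.570). These distances include the libraries with spinal cord and muscle transcripts.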

How the data were processed

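RNA from DRG was sequenced in 20 libraries. The labels describe poly-T selection and random priming, with both a strand-specific and a non-strand-specific protocol named. The deposited counts are whole reads per gene, which the authors made with fastp, HISAT2 and featureCounts 1.5.0-p3 (submitters' processing notes). The build, strand use and handling of reads with several alignments are not given in the sources used here, so antisense or overlapping genes are uncertain. The deposited FPKM values equal count/(length × DESeq2 size factor × 29715800), as checked for each library. CPM is count over the library total, and FPKM was used only between genes.

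Counts were tested with edgeR 4.0.16 (quasi-likelihood, TMM, two-sided) in R 4.3.3, and DESeq2 1.42.0 was an alternative. Genes with at least 10 counts in 90% of a model's libraries were kept (14484, 14549 and 14007 genes). The models held the 14 left libraries with a mean per group, the 12 libraries of 6 rats with the rat as a block, and the 13 sham and contralateral libraries. Left and right DRG come from the same rat by the library names, and their deviations correlated at 0.114 to 0.417. Libraries of FOD-CCI and FOD-CT with the same number also correlated above 0.1 (0.184 to 0.419), as did contralateral FOD-CCI and FOD-CT (0.18 to 0.573). Contralateral SOD-CCI and SOD-CT correlated at −0.052 to 0.361. In fish oil groups the highest value was that of replicate 1 in each set: 0.419 (FOD-CCI and FOD-CT), 0.573 (contralateral FOD-CCI and FOD-CT) and 0.37 (both sides of FOD-CCI). These are the libraries with spinal cord markers, and their part in the correlations was not tested. The labels give no reason for these values, and the correlations do not set pairs of the same rat apart. Animals are replicates, and the 20 libraries differed from one another beyond counting noise. Calls required an adjusted p no higher than 0.1 and a 1.2-fold change or more. The members and lists were chosen with earlier results of these data known. Named genes were all members, list genes called between sides, the 3 list genes with the smallest p, and the 2 nearest patterns per member. Some genes of the alpha subunit list are not reported here and were left out of its counts and median, so fewer of its genes are named. The pipeline was tested on simulated data. Figures were drawn with matplotlib 3.10.9.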

Additional observations from a re-analysis of the deposited data

How the results depend on the processing

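No member changed direction under DESeq2's own test, DESeq2 size factors in edgeR, no filter or the removal of a gene length trend, and the other scalings moved the median of all genes by less than 0.1 on the log2 scale. Left against contralateral over both diets, the members called were 1 with DESeq2 (790 of all genes) and 1 without a filter (Kcnd3 in both). When 1 rat was left out they were 0 to 3, the 3 being without FOD-CCI 1, where 1146 of 14992 genes were called. The share of all genes is not given for the fit without a filter or without another rat, so those counts are not read as a result. By diet, the members called were 0 to 1 in SOD-CCI and 0 to 1 in FOD-CCI, the 1 being Kcns1. Without FOD-CCI 1, edgeR called 471 of all genes in SOD-CCI and 137 in FOD-CCI. Against sham, without SOD-CT 1, FOD-CT 1 and FOD-CCI 1, 1 member was called in SOD (Kcns1) and 2 in FOD (Kcns1 and Kcnd3). Of all genes, 1.32% were called there in SOD and 3.47% in FOD. Leaving out FOD-CT 2 as well, which also has muscle transcripts, leaves 1 FOD-CT library. For that fit only effect sizes are given, and the calls could not be judged. These fits, and that of sham and contralateral DRG without 3 libraries, were chosen after seeing the data. In the fit without those 3 left libraries, in SOD the log2FC of Kcna1 became −0.16 and that of Kcnc4 0.48. With the replicate number as a block, Kcna2 in SOD-CCI against SOD-CT became 0.094, and the block changed no call of a member. The causes were not tested.

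Leaving out 1 library or rat changed the direction of members that had not been called with all libraries. For SOD-CCI against SOD-CT, log2FC ran from −0.18 to 0.56 for Kcna1, from −0.64 to 0.50 for Kcna2, from −0.56 to 0.077 for Kcnb2 and from −0.29 to 0.46 for Kcnc4. For FOD-CCI against FOD-CT it ran from −0.87 to 0.10 for Kcna1 and from −0.85 to 0.12 for Kcnb2, and for FOD-CCI against SOD-CCI from −0.38 to 0.16 for Kcna4 and from −0.17 to 0.056 for Kcns1. Left against contralateral in SOD-CCI, it ran from −0.91 to 0.015 for Kcna2 and from −0.038 to 1.08 for Kcnq3. In FOD-CCI it ran from −0.84 to 0.36 for Kcna4, from −0.89 to 0.73 for Kcnb2, from −0.14 to 0.36 for Kcnc4, from −0.78 to 0.75 for Kcnq3 and from −1.505 to 1.17 for Kcns1. The −1.505 of Kcns1 is the fit without FOD-CCI 1, in which it was called lower. With FOD-CCI 1 kept and another rat left out, its direction was reversed (1.17). Over both diets the log2FC ran from −0.089 to 0.67 for Kcnq3. FPKM in place of CPM moved 1 of 48 group levels by more than its SD (Kcnq3 in SOD-CCI). Every member had at least 15 counts in every library, and the part of read depth and group size in the precision was not tested.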
